A study of Mus musculus with 6 samples.

Results

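The cytosolic ribosomal protein genes encode the proteins that, with ribosomal RNA, build the ribosome of the cytoplasm. They were taken as the protein-coding genes of the deposited table whose symbols begin with Rpl or Rps followed by a digit, together with Rplp0, Rplp1, Rplp2 and Rpsa, without the Rps6k kinases. This rule used names and biotypes, not expression, and gave 94 genes of the 54532 in the table. All 77 core proteins were among them, 46 of the large subunit (Rpl) and 31 of the small subunit (Rps). The other members were 7 paralogs of core genes, 8 genes that carry a pseudogene-type symbol although the table lists them as protein-coding, the retrogene Rps27rt, and Rps19bp1, which encodes a protein that binds RPS19 and is not itself part of the ribosome. The members lay on 20 chromosomes.

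A ribosome needs its proteins in matched amounts, and their mRNAs are among the most abundant in a growing cell. Their mRNAs begin with a run of C and T, the terminal oligopyrimidine or TOP tract, through which mTORC1 and LARP1 adjust their translation and stability together. When assembly fails, RPL5 and RPL11 bind MDM2 with the 5S ribosomal RNA and stabilize p53. Ribosomal protein genes have also left many processed pseudogenes in the genome, near-identical copies of the mRNA that compete with the gene for short reads.

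RNA sequencing had been performed on mouse aortic smooth muscle cells (MASMCs), which the labels call vascular smooth muscle cells. Per the study they were isolated from the abdominal aorta of 10-week-old wild-type mice and cultured. The cells received an adenoviral vector with a control construct (Ad-Con, 3 libraries) or with an overexpression construct for pyruvate dehydrogenase kinase 4, a mitochondrial kinase that inhibits pyruvate dehydrogenase (Ad-PDK4, 3 libraries). Both groups were then treated with angiotensin II (Ang II) according to the study, a step the labels do not mention. The question was how PDK4 alters expression in these cells. The methods name a pEnCMV vector for the PDK4 plasmid, but the promoter of the adenoviral construct was not given in the sources used here. Whether the 3 libraries of a group came from separate animals is not stated beyond the term biological replicates, so p-values measure the spread between these libraries.

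The libraries held between 17588942 and 21861872 reads assigned to genes, recovered as whole reads from the deposited FPKM (fragments per kilobase, scaled to the size of the library). Pdk4 itself was lower, not higher, in the libraries labelled Ad-PDK4, at 7.67, 7.40 and 7.38 FPKM against 9.50, 10.4 and 10.1 in Ad-Con (log2 fold change -0.42, SE 0.06, adjusted p = 0.0011). Each direction below is therefore between libraries as labelled. Of the 11 smooth muscle markers 6 reached a mean of 0.5 FPKM. Acta2 was present (78.0 ± 0.950 FPKM in Ad-Con, SD, n = 3) and was lower in Ad-PDK4 (36.2 ± 2.40, log2 fold change -1.11, adjusted p = 5.3e-06). Tagln, Cnn1 and Myh11, which define contractile smooth muscle, were each under 0.6 FPKM in every library. Of the Tagln mRNA 48.3% also occurs in transcripts of other genes, and how reads that fit several places were counted was not given. Other cell type markers moved with the groups, and their part in the results below was not tested. The summed FPKM of 7 fibroblast markers was between 1727 and 1882 in Ad-Con and between 907 and 995 in Ad-PDK4. Col1a1 made up most of that sum (1056 ± 42.4 to 435 ± 49.5 FPKM). Members went both ways, with 5 lower, Dcn higher (log2 fold change 0.83) and Pdgfra not called (-0.05). That of 8 macrophage markers was between 14.97 and 17.9 in Ad-Con and between 5.91 and 7.44 in Ad-PDK4, with Ptprc, Itgam, Tyrobp and C1qa listed at 0 in every library. Its decrease came from Cd68 alone (14.2 ± 1.78 to 4.24 ± 0.991), while Csf1r (0.258 ± 0.143 against 0.640 ± 0.0804) and Lyz2 (a mean of 1.51 against 1.98 FPKM) were higher in every Ad-PDK4 library. The summed level of the smooth muscle markers was between 188 and 189 FPKM in Ad-Con and between 149 and 159 in Ad-PDK4. These markers also went both ways. Acta2 and Tpm2 (27.8 ± 0.996 to 22.1 ± 1.59) were lower, Cald1 was higher (56.0 ± 0.646 to 71.9 ± 2.82), and Smtn, Myl9 and Lmod1 were not called. The summed level of 7 endothelial markers was at most 1.18 in any library, with Emcn at 0.

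Ribosomal protein mRNA made up a smaller part of the transcriptome in the libraries labelled Ad-PDK4. The 94 members together took 10.4%, 11.3% and 11.1% of summed FPKM in Ad-Con replicates 1 to 3 and 10.1%, 9.86% and 9.69% in Ad-PDK4 replicates 1 to 3, so the groups did not overlap. The means were 10.9% ± 0.440 and 9.89% ± 0.217 (SD, n = 3), a difference of -1.05 percentage points. As shares of reads the values were 5.24%, 5.63% and 5.63% against 4.95%, 4.79% and 4.77%. In bulk RNA fewer cells of a type and less RNA per cell cannot be told apart, and a share falls also where other genes rise.

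Gene by gene, the shift was small and mostly downward. A mean of 0.5 FPKM over all libraries was required for testing, which 87 of the 94 members reached. By limma on log2(FPKM + 0.1), with Benjamini-Hochberg adjustment over the 13423 genes tested and a threshold of 0.05, 29 of the 87 fell, 3 rose and 55 were not called. Among all tested genes 20.8% fell and 21.8% rose, 42.7% in all, and among the protein-coding ones 22.6% fell and 23.8% rose. The share of members that fell (33.3%) was thus above that of all genes, and the share that rose (3.45%) was below it. The median log2 fold change over the 87 was -0.15, with quartiles of -0.27 and -0.04, against -0.003 over all genes tested. It was below 0 in 70 of the 87, and in 50.4% of all genes. Under quantile normalization, which forces every library onto the same distribution, the median shrank to -0.07 and 57 members were below 0. Then 20 members fell and 5 rose (20% of calls higher, against 9.38% without it). Among all tested genes 23.3% fell and 18.9% rose on this scale, so the share of members that fell was no longer above that of all genes. Relative to the median of all genes, that of the members was -0.036, against -0.144 without this step. Rescaled to TPM (which sets every library to the same summed level) the median was -0.11 and 24 fell. With size factors from the other genes the median was -0.15 and 31 fell. Relative to the median of all tested genes these were -0.143 and -0.144, and 18.1% and 21.2% of all tested genes fell. On the deposited scale, genes with short mRNAs also leaned down. Over all tested protein-coding genes, medians were -0.09 under 500 bases, -0.07 from 500 to 750 and -0.09 from 750 to 1000. They were -0.02 from 1000 to 2000 and 0.02 from 2000 bases on. Core genes had -0.17, -0.16, -0.11, -0.20 and -0.28 in the same classes, the last with 2 genes. The part of mRNA length in the shift was not tested.

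**Figure D1:**
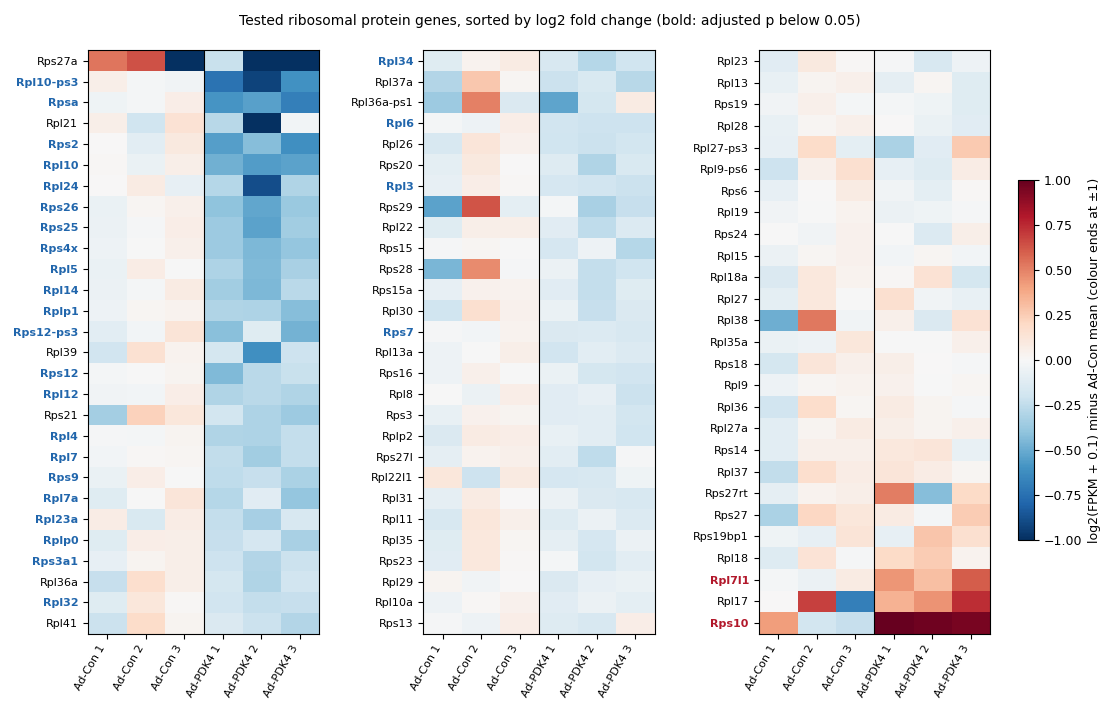
Heat map of 83 of the 87 tested members in the 6 libraries, sorted by log2 fold change down each panel and from the left panel to the right. Colour shows log2(FPKM + 0.1) minus the Ad-Con mean of the gene, and bold names passed the test (26 lower in blue, 2 higher in red). The Ad-PDK4 columns are mostly pale blue, Rps27a and Rpl17 vary within Ad-Con, and Rps29, Rps28 and Rpl38 are low in Ad-Con replicate 1 and high in replicate 2.

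In the limma fit no member was called with a fold change of 2 or more, where 6.63% of all tested genes were. The estimate farthest from 0 was 0.98 on the log2 scale (Rps10), and it reached 1.03 by limma-voom on the recovered reads. Of the 29 that fell, 4 had a log2 fold change below -0.5, 10 lay between -0.5 and -0.3, and 15 were closer to 0. In 38 of the 87 every Ad-PDK4 library was below every Ad-Con library, and in 3 every Ad-PDK4 library was above. Such separation was seen in 26.5% of all tested genes for lower and 27.8% for higher, 54.3% in all. Rpl7a was the only gene called whose groups overlapped, with 110.0, 119 and 129.8 FPKM in Ad-Con and 97.8, 110.3 and 91.3 in Ad-PDK4. In the small subunit 12 of 31 fell and 2 rose, with a median of -0.17, and in the large subunit 15 of 46 fell and none rose, with a median of -0.15. Under quantile normalization these medians were -0.08 and -0.06, and 1 large-subunit gene rose. When Ad-Con replicate 3 was left out, 8 of 46 large-subunit and 10 of 31 small-subunit genes fell, against 16.1% of all tested genes. When Ad-Con replicate 2 was left out, 9 and 12 did, against 17.7%. The share in the large subunit was thus near that of all tested genes in both fits.

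**Figure D2:**
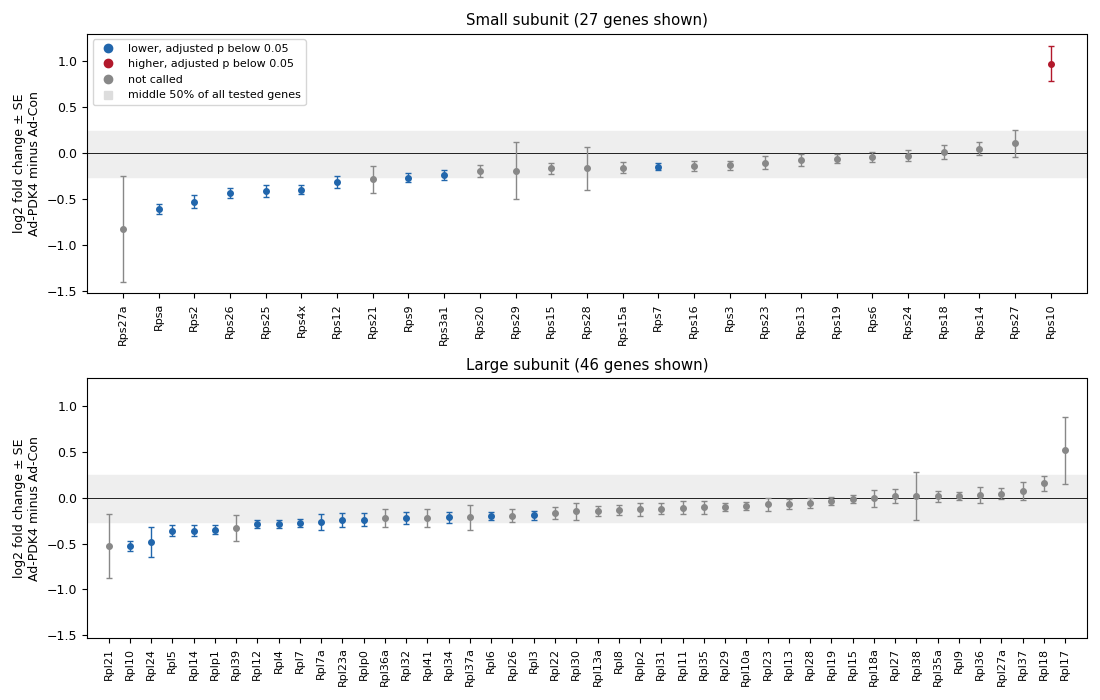
Log2 fold change (Ad-PDK4 minus Ad-Con) with its standard error for 27 of the 31 small-subunit genes and all 46 large-subunit genes, blue where lower and red where higher at an adjusted p below 0.05, grey where not called. The grey band is the middle 50% of all tested genes. Most points lie between -0.5 and 0, Rps10 stands above the band, and Rps27a, Rpl21 and Rpl17 have wide errors.

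Among small-subunit genes the falls were led by Rpsa and Rps2. Rpsa (ENSMUSG00000032518, chromosome 9, 120127689 to 120132369, GRCm38) encodes a protein on the solvent side of the small subunit that is also known as the laminin receptor precursor. It had 646, 654 and 695 FPKM in Ad-Con and 442, 456 and 413 in Ad-PDK4. All 3 Ad-PDK4 libraries lay far below the lowest Ad-Con library, a decrease of the mean from 665 ± 26.2 to 437 ± 22.0 (log2 fold change -0.61, SE 0.05, adjusted p = 9.4e-05).

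Rps2 (chromosome 17, 24718116 to 24721929), whose protein lines the channel by which mRNA enters the ribosome, had 1448, 1344 and 1541 FPKM in Ad-Con and 986, 1076 and 941 in Ad-PDK4 (log2 fold change -0.53, SE 0.07, adjusted p = 0.00067). The groups were clearly apart here as well. Rps26 (chromosome 10, 128624534 to 128626747), which contacts mRNA upstream of the start codon at the exit channel, had 475, 503 and 513 FPKM against 375, 346 and 384 (log2 fold change -0.43, SE 0.06, adjusted p = 0.00065). Rps25, a protein that many viral internal ribosome entry sites need, fell by 0.42 on the log2 scale, and Rps4x, the X-linked RPS4 gene, fell by 0.40. Others that fell in this subunit included Rps12, Rps9, Rps3a1 and Rps7, by 0.31 down to 0.15 on the log2 scale. Rps6, the protein phosphorylated by S6 kinase downstream of mTORC1, was not called at 397, 423 and 446 FPKM against 411, 395 and 425 (log2 fold change -0.04, SE 0.06).

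In the large subunit, Rpl10 (ENSMUSG00000008682, chromosome X, 74270812 to 74273135) had the largest fall among core genes called there. Its protein joins late, in the cytoplasm, next to the peptidyl transferase centre. It had 626, 592 and 646 FPKM in Ad-Con and 444, 421 and 428 in Ad-PDK4 (log2 fold change -0.53, SE 0.05, adjusted p = 0.00012). The member Rpl10-ps3, which shares 96.1% of its sequence with other transcripts, went the same way at 21.3 ± 0.775 against 12.6 ± 1.41 FPKM (log2 fold change -0.76, SE 0.08). Reads of Rpl10 could be placed on it, so it is not independent of Rpl10. The other pseudogene-type member that fell was Rps12-ps3, at 428, 452 and 502 against 343, 423 and 331 FPKM (log2 fold change -0.34, SE 0.10, adjusted p = 0.031).

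Rpl24, a protein of the subunit bridge, was called only just, at 15.9, 16.8 and 14.9 FPKM against 13.0, 8.54 and 12.9 (log2 fold change -0.49, SE 0.16, adjusted p = 0.0499). Its call was lost in 9 of 17 alternatives, among them each fit without 1 of the Ad-Con libraries (adjusted p between 0.094 and 0.13) and the fit without Ad-PDK4 replicate 3 (adjusted p = 0.052). Rpl14 fell by 0.36 on the log2 scale, with 305, 313 and 336 FPKM against 249, 232 and 263. The remaining falls in this subunit were Rpl5, Rplp1, Rpl12, Rpl4, Rpl7, Rpl7a, Rpl23a, Rplp0, Rpl32, Rpl34, Rpl6 and Rpl3, by 0.36 down to 0.19 on the log2 scale.

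The stalk is the flexible arm of the large subunit that recruits elongation factors, built from RPLP0, RPLP1 and RPLP2 on a base that includes RPL12. Rplp1 had the highest mean FPKM of all members, at 2769, 2909.5 and 2938 in Ad-Con and 2327, 2314 and 2134 in Ad-PDK4 (log2 fold change -0.35, SE 0.05, adjusted p = 0.0013). Rplp0 had 1329, 1519 and 1506 against 1238, 1287 and 1159.8 FPKM (log2 fold change -0.24, SE 0.07, adjusted p = 0.022). Rpl12 had 237, 237 and 254 against 197, 201 and 197 FPKM (log2 fold change -0.29, SE 0.05, adjusted p = 0.0018). Thus 3 of the 4 fell on the deposited scale, and the other, Rplp2, had overlapping groups at 188, 219.9 and 217 against 198, 193 and 181 FPKM (log2 fold change -0.13, adjusted p = 0.19, or -0.20 and 0.036 without Ad-Con replicate 1). Under quantile normalization Rplp0 (0.14) and Rplp1 (0.10) changed sign and neither was called, Rpl12 alone still fell, and the median of the 4 went from -0.26 to 0.01. The call on Rplp0 was also lost without Ad-Con replicate 2 or 3 and without Ad-PDK4 replicate 1 or 3 (adjusted p between 0.063 and 0.084).

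The members with the highest mean FPKM after Rplp1 were Rplp0, Rps2, Rps15 and Rpl8. Rps15, a head protein of the small subunit, had 1209.5, 1236 and 1215 FPKM against 1087, 1178 and 1001, and Rpl8, beside the peptidyl transferase centre, had 1000.4, 966 and 1049.6 against 927, 949 and 865. Neither passed the test (adjusted p = 0.064 and 0.077), although every Ad-PDK4 library was below every Ad-Con library for both. Rps15 passed it without Ad-PDK4 replicate 2 (log2 fold change -0.23, adjusted p = 0.015, against -0.17 with all libraries) and changed sign under quantile normalization (0.01).

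RPL5 and RPL11 travel with 5S ribosomal RNA as a particle of their own. Rpl5 (chromosome 5, 107900502 to 107909005) fell, with 240.1, 265 and 250.5 FPKM in Ad-Con and 203, 186 and 201 in Ad-PDK4 (log2 fold change -0.36, SE 0.06, adjusted p = 0.0017). Rpl11 was not called, at 146, 176 and 169 against 149, 157 and 148 FPKM (log2 fold change -0.11, SE 0.07, adjusted p = 0.27). Without Ad-Con replicate 1, the lowest library of that group, Rpl11 was called as well (-0.19, adjusted p = 0.039). Whether the changes of the 2 genes differ was not tested. Of the p53 arm that this particle acts on, Trp53 had 36.4 ± 1.37 FPKM in Ad-Con and 51.7 ± 0.912 in Ad-PDK4, and rose by 0.51 on the log2 scale (adjusted p = 0.00012). The p53 antagonist Mdm2 rose by 0.21 (adjusted p = 0.012) and the p53 target Cdkn1a by 0.23 (adjusted p = 0.022). The call on Cdkn1a was lost without Ad-Con replicate 1 or 2 or Ad-PDK4 replicate 1 or 2 (adjusted p between 0.052 and 0.071). Only these 3 genes of the p53 arm were listed, and other p53 targets were not read as a set. These are mRNA levels, which do not measure the stability of p53 protein, and their link to Rpl5 and Rpl11 was not tested.

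Paralogs replace core proteins in particular tissues. Of the 8 listed, Rps4l is annotated as a transcribed pseudogene and so is not a member. Rpl10l and Rpl39l had 0 reads in every library, which allows up to 3 reads in each by counting error alone. Rpl3l had at most 7 reads and Rpl36al at most 19. Rpl7l1, a nucleolar relative of RPL7, was the only paralog called. It had 27.5, 26.7 and 29.5 FPKM in Ad-Con and 37.9, 34.3 and 42.5 in Ad-PDK4, a rise of 37.1% in the mean (log2 fold change 0.45, SE 0.08, adjusted p = 0.0034) with no overlap. Its partner Rpl7 fell, from 442, 455 and 458 to 380.1, 355 and 383 FPKM (log2 fold change -0.28, SE 0.05, adjusted p = 0.0025). The difference between the 2 changes was not tested. Rpl22l1, Rps27l and Rps4l were not called, with log2 fold changes of -0.12, -0.12 and -0.05. Of their partners Rps4x fell, while Rpl22 (-0.17) and Rps27 (0.11, and -0.05 without Ad-Con replicate 1) were not called. Partners Rpl36a (-0.22) and Rpl39 (-0.33, SE 0.14) were not called either, whereas Rpl3 and Rpl10 fell. Without Ad-Con replicate 1 Rpl22 (-0.23) and Rpl36a (-0.34) were called, without Ad-Con replicate 2 Rpl22l1 was (-0.23, adjusted p = 0.028), and Rpl3 was lost without Ad-Con replicate 2 or 3 (adjusted p = 0.052 and 0.064).

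Rps10 had the largest rise of any member in the fit, and it rested on few reads. It had 57, 31 and 31 reads in Ad-Con and 79, 74 and 92 in Ad-PDK4, or 0.905 ± 0.266 and 1.84 ± 0.0386 FPKM (log2 fold change 0.98, SE 0.19, adjusted p = 0.0050). The processed pseudogene Rps10-ps2, which shares 76.4% of the Rps10 mRNA, carried 3230, 3087 and 3158 reads against 2826, 3052 and 3364. When Rps10 was summed with its 2 pseudogenes the change was -0.10 on the log2 scale (adjusted p = 0.22). That sum is mostly reads of Rps10-ps2, so it cannot show whether Rps10 itself rose.

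Such sharing touched most members, since 62.2% of the mRNA of the median core gene occurred in another annotated transcript in runs of 50 bases. How the counting treated reads that fit several places, or strand, was not given in the sources used here. Altogether 472 pseudogenes were assigned to a member by at least 10% of its mRNA, and 376 of them carried at least 1 read. They took 0.403%, 0.420% and 0.449% of reads in Ad-Con and 0.371%, 0.351% and 0.356% in Ad-PDK4. In 3 core genes (Rpl17, Rpl21 and Rps10) the pseudogenes held more reads than the gene.

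In Rpl17, the gene and a copy varied in opposite directions. The gene had 4965, 6874 and 2742 reads in Ad-Con, while its pseudogene Rpl17-ps10 had 5654, 3339 and 7204, high where the gene was low. In Ad-PDK4 the gene had 5647, 5831 and 8997 reads and the copy 4558, 3646 and 3047. Summed over the gene and 14 pseudogenes the counts were 15711, 14864 and 15311 against 14819, 13521 and 17713. The log2 fold change went from 0.51 (SE 0.36, adjusted p = 0.31) for Rpl17 alone to -0.04 (SE 0.05, adjusted p = 0.54) for the sum.

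Rps27a, which encodes ubiquitin fused to a ribosomal protein, had the widest spread within Ad-Con. It had 243, 261 and 74.8 FPKM in Ad-Con and 144, 70.4 and 84.3 in Ad-PDK4 (log2 fold change -0.82, SE 0.58, adjusted p = 0.31). Ad-Con replicate 3 thus lay among the Ad-PDK4 libraries. Its most abundant pseudogene, Gm8430, had only 911 to 1306 reads in Ad-Con, and the sum over Rps27a and 6 pseudogenes kept the spread at 10781, 10056 and 4122 reads against 6105, 3369 and 4867.

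**Figure D3:**
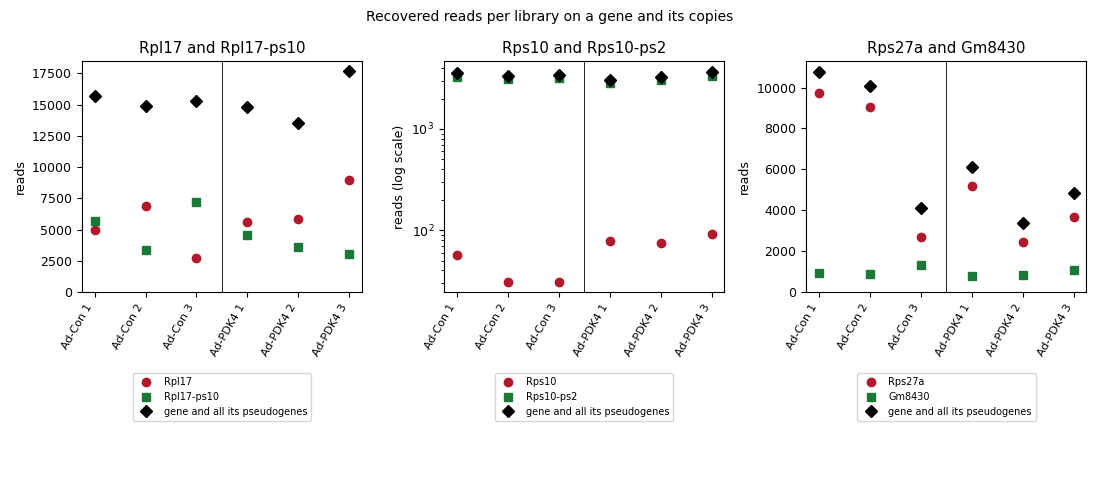
Recovered reads in each library on Rpl17, Rps10 and Rps27a (circles), on their most abundant pseudogene (squares), and on the gene with all its pseudogenes (diamonds), with a log axis for Rps10 only. Rpl17 and Rpl17-ps10 mirror each other while their sum stays between 13521 and 17713, Rps10 lies far below Rps10-ps2, and Rps27a varies without a matching change in Gm8430.

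Summing every member with its pseudogenes, an alternative added after the data had been seen, gave 82 tested members, of which 29 fell and 2 rose. The share that fell among all genes tested this way was 21.2%, and 22.4% rose. Of the 29 members that fell when counted alone, 26 also fell as sums, and Rpl7l1 was among the rises. The median was -0.16. Conversely, only 8 tested members shared at most 20% of their mRNA. Among these Rpl4 fell (843, 837 and 866 against 688, 685 and 719 FPKM), Rpl7l1 rose, and Rpl8, Rps3, Rps20, Rpl39 and Rps19bp1 were not called. With Rpl4 as their only fall, these few members showed no excess over the 20.8% of all tested genes that fell.

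Levels of the core genes spanned a wide range. Mean FPKM ran from 1.37 for Rps10 to 2565 for Rplp1, with a median of 314 and quartiles of 164 and 457. The deposited length counts every annotated exon base, and equalled the mRNA in Rplp1 but was 13.4 times as long in Rps24. With the same reads divided by the length of the annotated mRNA instead, the ratio of the 90th to the 10th percentile went from 9.32 to 4.33, and to 3.94 after adding pseudogene reads. Rpl24 (38.3), Rpl13a (59.3) and Rps20 (87.3) remained lowest on that last scale of fragments per kilobase of mRNA, against a median of 882.

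The Ad-Con libraries varied more than the Ad-PDK4 libraries in 53 of the 77 core genes and in 5685 of the 13423 genes tested. Ad-Con replicate 1 was the lowest of its group in 62 of 77, compared with 4257 of all genes tested. Without it the median log2 fold change of the members moved to -0.20, 80 of 87 were below 0 and 38 fell. Without Ad-Con replicate 3, only 19 fell. Within Ad-Con the widest spread, apart from Rps27a and Rpl17, was in very short mRNAs, whereas within Ad-PDK4 it was in Rpl21 (SD 0.67 on the log2 scale, mRNA of 899 bases). Rps29 (mRNA of 390 bases) had 99.0, 222 and 134 FPKM in Ad-Con and 142, 114 and 122 in Ad-PDK4. Rpl38 (345 bases) had 159.6, 324 and 219 against 232, 203 and 248, and Rps28 (271 bases) had 166, 317 and 227 against 219, 194 and 199.6. In all 3 genes Ad-Con replicate 1 was the lowest and Ad-Con replicate 2 the highest of the 6 libraries. None of the 3 was called (adjusted p between 0.61 and 0.97). Over the 18 core genes with an mRNA under 500 bases, the median log2 difference between Ad-Con replicate 2 and replicate 1 was 0.21, and over all 167 tested protein-coding genes of that length it was 0.12. For mRNAs of 2000 bases or more it was -0.01 over 7512 protein-coding genes. The part of mRNA length in these values was not tested.

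**Figure D4:**
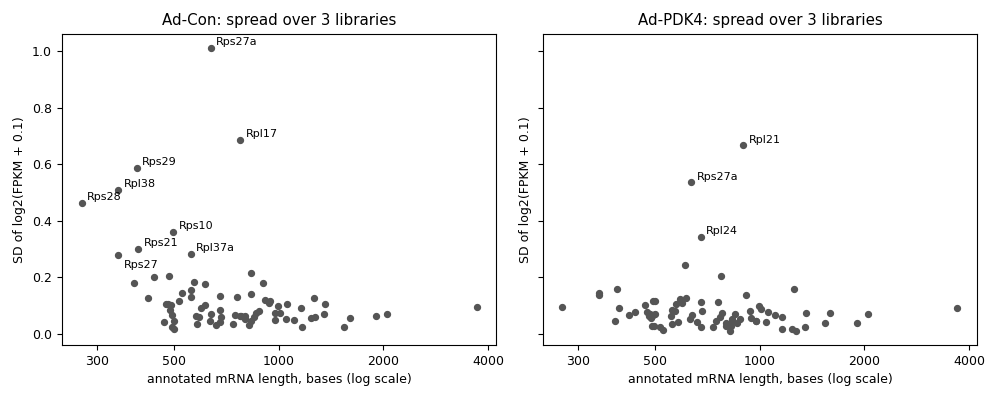
Standard deviation of log2(FPKM + 0.1) over the 3 libraries of each group against the annotated mRNA length (log axis) for the 77 core genes, with names above 0.25. In Ad-Con 9 genes exceed 0.25, 6 of them at the short end with mRNAs of 500 bases or less, and in Ad-PDK4 3 do.

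The start of the mRNA carries the element that members are known to share, so the RefSeq start sites were read for the 66 members with an entry (GRCm38.p6). A run of at least 5 C or T beginning within 10 bases of the start was present in 32 of 57 core genes (56.1%), against 38.0% of the starts of all other genes. It was present in 10 of the 19 core genes that fell (52.6%) and in 21 of the 37 that were not called (56.8%). Runs whose first base was C stood in 5 of the 19 (26.3%) and 15 of the 37 (40.5%), and in 21.4% of all other starts. The median run length was 6.5 bases in genes that fell and 9 in those not called. These differences were not tested. A run that begins more than 10 bases before the start was left out, even where it crosses the start. Rpl7a, which fell, has such a run and was counted as having none, so the shares and lengths depend on this limit. Windows of 30 bases, 15 on each side of the start, are shown for genes that fell and for genes that did not, with the run in capitals.
Rps26 (fell; chr10:128626492-128626521, minus strand): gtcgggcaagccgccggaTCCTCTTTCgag
Rpl14 (fell; chr9:120571502-120571531, plus strand): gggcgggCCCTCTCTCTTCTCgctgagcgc
Rpl12 (fell; chr2:32961697-32961726, plus strand): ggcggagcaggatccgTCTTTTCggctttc
Rpl10 (fell; chrX:74270801-74270830, plus strand): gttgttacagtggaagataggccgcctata
Rps6 (not called; chr4:86857353-86857382, minus strand): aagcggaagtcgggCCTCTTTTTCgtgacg
Rps18 (not called; chr17:33955651-33955680, minus strand): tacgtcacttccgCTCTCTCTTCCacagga
Rpl15 (not called; chr14:18270972-18271001, minus strand): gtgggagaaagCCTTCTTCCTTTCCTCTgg
Rpl27a (not called; chr7:109519180-109519209, plus strand): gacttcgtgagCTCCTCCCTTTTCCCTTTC
Long runs stand at the start of Rpl15 and Rpl27a, whose log2 fold changes were -0.01 and 0.05, and no such run begins near the annotated start of Rpl10, which fell by 0.53. An annotated start can lie some bases from the start that the cell uses, so a missing run says only that these letters are not at this place.

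In the 300 bases from 250 before to 50 after the start, CCGGAAG, the letters that ETS factors such as GABP bind, stood on either strand in 23 of 57 core promoters (40.4%) and in 9.01% of the promoters of all other genes. It was in 7 of the 19 core genes that fell and 15 of the 37 not called. CACGTG, the E-box that MYC binds and that reads the same on both strands, was in 5 of 57 (8.77%) against 7.09%. A promoter was counted as having a motif however many copies it held, and copies of CCGGAAG on opposite strands can overlap. A match is a description of the letters and not a site of binding.

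Genes that act with the ribosomal proteins did not all move with them. Fau encodes the ribosomal protein RPS30 fused to a ubiquitin-like protein and lies outside the naming rule, as does Rack1, a scaffold on the small subunit. Fau rose (737 ± 36.7 to 833 ± 26.8 FPKM, log2 fold change 0.18, adjusted p = 0.029), a call lost without Ad-Con replicate 1 or 3 or Ad-PDK4 replicate 1 or 2 (adjusted p between 0.068 and 0.099). Rack1 fell by 0.27 on the log2 scale (adjusted p = 0.0078, or 0.052 under quantile normalization).

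Of 20 other mRNAs known or thought to carry a TOP tract, 9 fell (45%) and 2 rose (10%), with a median of -0.14. Over all tested genes 20.8% fell and 21.8% rose. The falls were led by Tpt1, with 949, 1007 and 989 FPKM in Ad-Con and 657, 617 and 674 in Ad-PDK4 (log2 fold change -0.60, adjusted p = 7.0e-05), and by the initiation factor Eif4b (-0.58). The rises were Fau and Pabpc1, the poly(A)-binding protein (0.17), and 1 of the 20 rose without Ad-Con replicate 1 or 3 or Ad-PDK4 replicate 1 or 2. Eef1a1, which brings tRNA to the ribosome and is more abundant than any ribosomal protein mRNA here, had 4781, 5106 and 5219 FPKM against 3656, 3530.3 and 3575 (log2 fold change -0.49, SE 0.05). Among 12 genes listed under elongation and termination, not all of them such factors in the strict sense, 3 fell (25%) and 4 rose (33.3%). The falls were led by Eef1a1 and Eef1b2 (both -0.49) and the rises by Eef1e1 (0.76) and Pelo (0.43). The call on Pelo was lost without Ad-Con replicate 2 or 3 or Ad-PDK4 replicate 1 or 2 (adjusted p between 0.10 and 0.13). Among 37 initiation factors 8 fell (21.6%) and 10 rose (27.0%) with a median of 0.03, against 20.8% and 21.8% of all tested genes. Under quantile normalization 10 fell and 6 rose with a median of -0.02. Only 6 rose without Ad-Con replicate 1 or 2, and 5 without Ad-PDK4 replicate 1. Eif1 (-0.70) and Eif4b fell most, and Eif4g1 (0.73) and Eif6 (0.63), which keeps the large subunit from joining too early, rose most.

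Genes that make ribosomes mostly rose. Of 52 tested ribosome biogenesis factors 30 rose (57.7%) and 2 fell (3.85%), with a median of 0.26. Over all tested genes 21.8% rose and 20.8% fell. The rises were led by Rrp12 (2.65, 2.28 and 2.21 FPKM against 4.96, 5.25 and 4.55) and Rrs1, which loads the 5S particle (42.5, 41.5 and 39.0 against 76.4, 84.5 and 77.6). The falls were Nop10 (-0.29) and Ncl (-0.20), and each was lost in most fits that left out 1 library (adjusted p up to 0.091 and 0.11). Of 12 RNA polymerase I genes 4 rose (33.3%) and none fell, led by Taf1a (0.41) and Polr1b (0.40). Under quantile normalization 3 of these genes rose and 2 fell. Of the 77 tested mitochondrial ribosomal protein genes, which serve the separate ribosome of the mitochondrion, 16 rose (20.8%) and 7 fell (9.09%), with a median of 0.06. The share of these that rose was thus near that of all tested genes. These lists and the members were set side by side without a test between them.

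**Figure D5:**
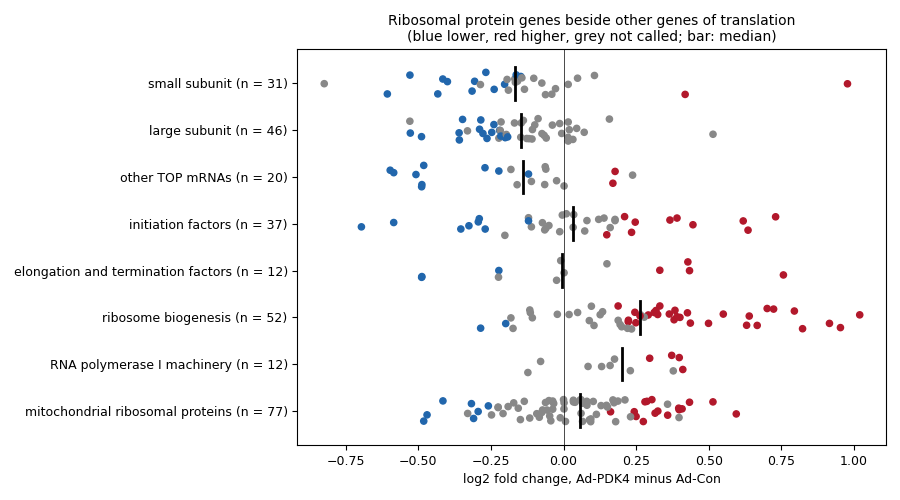
Log2 fold change (Ad-PDK4 minus Ad-Con) of each tested gene in 8 groups of translation genes, blue where lower and red where higher at an adjusted p below 0.05, with the group median as a bar. The medians of both subunits and of other TOP mRNAs lie between -0.17 and -0.14 (both subunits at -0.08 and -0.06 under quantile normalization), and those of ribosome biogenesis and RNA polymerase I genes at 0.26 and 0.20.

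Of 20 genes that control TOP mRNAs and growth, 10 rose (50%) and 5 fell (25%), against 21.8% and 20.8% of all tested genes. The counts were 6 and 5 under quantile normalization and without Ad-Con replicate 1 or 3 or Ad-PDK4 replicate 1. Myc, which drives transcription of ribosome genes, rose from 7.49, 6.35 and 7.55 to 12.2, 12.4 and 13.0 FPKM (log2 fold change 0.81, SE 0.08, adjusted p = 0.00014). Rictor, of mTORC2, rose by 0.62. The mTORC1 inhibitors Sesn1 and Deptor fell, Sesn1 from 22.9 ± 1.02 to 8.76 ± 0.195 FPKM (log2 fold change -1.38, adjusted p = 1.4e-06) and Deptor by 0.95 on the log2 scale.

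Small nucleolar RNAs lie inside 30 of the 94 members, 58 in all by the coordinates of the table. Of these 30 host genes 15 fell, and the other 14 falls were among the 57 tested members without one. Over all tested genes 20.8% fell, and a link between hosting and the falls was not tested. Across the 77 core genes, which share libraries and are not independent, the Spearman correlation of the log2 fold change was 0.06 with the share of mRNA found elsewhere, -0.17 with mRNA length, 0.24 with GC content and -0.08 with mean FPKM, given as descriptions of these libraries.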

How the data were processed

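RNA of 6 libraries (3 Ad-Con, 3 Ad-PDK4) had been sequenced, and the authors deposited 1 table of FPKM per gene with gene length and annotation. Per the submitters' processing notes the tools were CASAVA 1.8, fastp, HISAT2 2.0.5, featureCounts 1.5.0-p3 and DESeq2 1.20.0. The notes name GRCm39, but 90 of the 94 members had the coordinates of GENCODE M21 on GRCm38, and coordinates are given as deposited. The labels and the methods name different library kits, and strand and multi-mapping settings were not given in the sources used here.

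FPKM times deposited length gave whole reads for 100% of values (tolerance 0.01 read), between 17588942 and 21861872 per library. Counts of reads, and the limit of 3 reads that a 0 allows, cover counting error only. The 13423 genes whose mean reached 0.5 FPKM entered the test, made with limma 3.58.1 in R 4.3.3 on log2(FPKM + 0.1), with trend and robust settings and Benjamini-Hochberg adjustment. Fold changes are on that scale and understate those of low genes. Limma-voom on the recovered reads, an alternative, called 6348 genes against 5726. Sharing was counted in runs of 50 bases against GENCODE M21 transcripts. Starts and promoters came from RefSeq (GRCm38.p6). The fit was tested on simulated data. Libraries of a group differed by more than counting noise (chi-square per degree of freedom between 3.99 and 10.9).

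The members and gene lists were chosen with earlier results of these data known. Genes were named by rule: the 6 largest called rises and falls, the 5 highest levels, paralogs and partners, stalk, 5S particle, and the 2 largest called rises and falls of each translation list. Others, such as Rps6, Rps27a, Rpl17 and Rps29, were named after their values were seen. Alternatives were other pseudocounts, filters and scalings, limma without trend and robust settings, a replicate block, limma-voom, leaving out each library, members with little shared sequence, and sums with pseudogenes. Some genes that entered the fits and counts are not reported by name here.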

Additional observations from a re-analysis of the deposited data

How the results depend on the processing

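Between 16 and 17 refits were made per gene, 16 of them planned and the sum with pseudogenes added after the data had been seen. All 3 rises and 14 of the 29 falls were called in every planned refit in which they could be tested, and the other 15 falls were lost in at least 1. Under quantile normalization 5 members rose (Rpl27a and Rps14 in addition), the median went to -0.071, and Rplp0 (0.14), Rplp1 (0.10) and Rps15 (0.0083) changed sign. Summing with pseudogenes gave -0.10 for Rps10, a sum made up mostly of pseudogene reads. With at most 20% of the mRNA shared, 1 member fell and 2 rose, and only 8 could be tested. Over all tested genes 20.8% fell and 21.8% rose, so these few members showed no excess of falls.

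Leaving out 1 library at a time gave 19 to 38 falls and 3 or 4 rises, medians from -0.20 to -0.12, between 4542 and 5394 genes called in all, and a difference in share of summed FPKM from -1.30 to -0.88 percentage points. Among all tested genes between 16.1% and 20.1% fell in these fits, and between 17.3% and 20.1% rose. The 19 falls came without Ad-Con replicate 3 and the 38 falls, with the median of -0.20, without Ad-Con replicate 1, where Rps27 also turned from 0.11 to -0.053 (0.21 without Ad-Con replicate 2). With a replicate block 24 members fell and 3 rose, but same-numbered libraries did not deviate together (correlations between -0.046 and -0.001, and not every library correlated best with its own number). The cause of these changes was not tested. Up to 3 reads cannot be told from 0, and 3 libraries a group limit what small changes can be called.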
